A study of Mus musculus with 55 samples.

Results

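The genes of the PIWI-interacting RNA (piRNA) pathway were followed by name in single mouse oocytes: Piwil2, Piwil4, Ddx4, Mael, Mov10l1, Tdrd1, Tdrd9, Asz1 and Pld6. They were chosen by name, as germline genes of retrotransposon control, and all 9 were found among the 51734 genes counted in each of 52 libraries. Every library came from 1 oocyte. Fully grown oocytes (FGOs), the large oocytes of the ovary that are arrested before the first meiotic division, were taken from ovaries of females aged 10 to 12 weeks and washed free of cumulus cells. The groups were 18 FGOs labelled Wild type, 8 labelled Dnmt3a+/+Dnmt3LD124A/D124A (here Dnmt3LADD/ADD), 8 labelled Dnmt3aADA/ADADnmt3L+/+ (Dnmt3aADD/ADD) and 8 labelled Dnmt3aADA/ADA + Dnmt3LD124A/D124A (here [Dnmt3aADD/ADD, Dnmt3LADD/ADD]). A further 10 Wild type oocytes were at metaphase II (MII), the stage reached after maturation. The mutations change the ADD domain of the DNA methyltransferase DNMT3A and of its cofactor DNMT3L, the domain that reads unmethylated lysine 4 of histone H3. They are germline alleles that every cell of the animal carries, in lines backcrossed to C57BL/6J. Neither the number of females per group nor the female behind each oocyte is given in the labels, so p-values measure the spread between oocytes.

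piRNAs are small RNAs that PIWI proteins carry to transcripts of retrotransposons, which are then cleaved or, in fetal male germ cells, silenced by DNA methylation at their source. Long precursor transcripts are unwound by the helicase MOV10L1, cut at the mitochondrial surface by the nuclease PLD6 beside the anchor protein ASZ1, and loaded on PIWI proteins that gather with Tudor-domain proteins and the helicase DDX4 in germ granules. In mice, loss of most of these genes blocks spermatogenesis, whereas females are mostly fertile and growing oocytes also hold small interfering RNAs made by DICER1.

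The stretches before the transcription starts of the members are shown first, since the same 6 letters recur in them. RefSeq gives 1 or more promoter windows (GRCm38.p6) for 8 of the 9 members, all but Piwil2. In the 250 bases before these starts, CACGTG, which reads the same on both strands, was found in 6 of the 8 members: Mael, Pld6, Tdrd9, Ddx4, Mov10l1 and Tdrd1. Over all genes with a window the share was 6.86%, and among the 14127 windows with at least 8 CG pairs, the fewest in a member window that holds the motif, it was 9.18%. The latter is a share of windows, with a cut set from the members themselves, whereas members were counted as genes. The motif was chosen with earlier results of these data known, and enrichment was not tested. The letters GCGGGAA, searched on both strands, were found in 1 member, Ddx4, against 4.38% of all genes. Up to 30 bases around each CACGTG are printed 5′ to 3′ on the strand of the gene, with the motif in capitals.
Tdrd1, chr19:56826186-56826215, plus strand, first motif base 11 bases before the nearest RefSeq start: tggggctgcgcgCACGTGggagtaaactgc
Ddx4, chr13:112652322-112652351, minus strand, 29 bases before the start: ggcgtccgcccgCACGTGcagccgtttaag
Pld6, chr11:59787673-59787702, minus strand, 33 bases before the start: ggggcgggctggCACGTGttgggcgcgcaa
Tdrd9, chr12:111971452-111971481, plus strand, 95 bases before the start: gcacgaggctccCACGTGcatgcagggcct
Tdrd9, chr12:111971382-111971411, plus strand, 165 bases before the start: ggtctccataaaCACGTGcctgtccaggtc
Mael, chr1:166238950-166238979, minus strand, 223 bases before the start: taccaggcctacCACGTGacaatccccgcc
Mov10l1, chr15:88982744-88982765, plus strand, 246 bases before the start: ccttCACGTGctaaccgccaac
The motif of Ddx4 lies within an exon that GENCODE annotates for this gene, and the others lie outside annotated exons. A match is a description of the letters only. Bases before any annotated exon are shown in longer runs for Pld6 and Mov10l1, 2 members that passed a test between genotypes below, with the same motif in capitals.
Pld6, chr11:59787658-59787907, minus strand: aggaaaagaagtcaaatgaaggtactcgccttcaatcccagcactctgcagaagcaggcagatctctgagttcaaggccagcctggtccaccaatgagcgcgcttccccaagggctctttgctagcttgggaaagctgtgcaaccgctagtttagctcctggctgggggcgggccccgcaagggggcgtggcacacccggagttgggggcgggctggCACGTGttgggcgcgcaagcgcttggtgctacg
Mov10l1, chr15:88982744-88982908, plus strand: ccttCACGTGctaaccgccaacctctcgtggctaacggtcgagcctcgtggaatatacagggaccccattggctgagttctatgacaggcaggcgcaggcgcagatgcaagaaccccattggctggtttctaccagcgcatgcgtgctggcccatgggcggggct

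Total counts ranged from 7832458 to 23739871 per library. The SMART-Seq HT kit copies polyadenylated RNA, and CPM, counts scaled to a common library total, give a share of these counts, so that a lower share and less RNA per oocyte cannot be told apart. All 10 oocyte markers (Gdf9, Zp3 and others) were counted in every group, with summed levels from 6490 to 11400 CPM over the 52 oocytes. Granulosa markers summed to 114 to 193 CPM. This sum did not follow most of its markers. From wild-type FGOs to MII oocytes its median went from 151 to 120 CPM. Of the same 10 markers, 6 were lower by over 2-fold (median log2 fold change of the 10, -3.02). Markers of blood and endothelium summed to 45.0 to 125 CPM, of which Pecam1 gave 53.1 to 94.0 CPM in wild-type FGOs, while the hemoglobin genes were at or near 0. In the read summary of the study, less than 80% of the reads were mapped in 8 of the 18 wild-type FGOs, in 3 of the 8 Dnmt3aADD/ADD FGOs, in all 8 [Dnmt3aADD/ADD, Dnmt3LADD/ADD] FGOs and in 3 of the 10 MII oocytes, but in 0 of the 8 Dnmt3LADD/ADD FGOs. These libraries are called lower-mapped here and the others higher-mapped, and values within each class are given beside the results of the members. For other genes the class was not examined. In the wild type the lower-mapped FGOs were replicates 1 to 8 and the higher-mapped ones replicates 9 to 18. There the class and a set of libraries made together cannot be told apart.

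In wild-type FGOs the members differed widely in level per transcript length (RPKM, which is CPM per kilobase of exon). Tdrd1 was the highest and Piwil4 the lowest of the 9. Tdrd1, the Tudor-domain scaffold that gathers PIWI proteins near mitochondria (chromosome 19, 56826209 to 56870012, exons of 5443 bases), stood at 127 RPKM on average over 18 oocytes. Asz1, the mitochondrial anchor of the pathway, followed with a mean of 33.3 RPKM, and Ddx4, the DEAD-box helicase of germ granules, with 33.1 RPKM. Next came Mael, an HMG-box protein needed for piRNA production and silencing, at a mean of 22.9 RPKM, and Tdrd9, a helicase with a Tudor domain, at 9.58 RPKM. Pld6, the nuclease, was lower at a mean of 3.78 RPKM, as were Mov10l1, the precursor helicase, at 2.42 RPKM and Piwil2, the PIWI protein MILI, at 2.31 RPKM. Of the 8 pairs of neighbours in this order, 6 differed in a permutation test that flips signs within oocytes on log2(RPKM + 0.1), and Tdrd1 was above Asz1 in 18 of 18 oocytes. Asz1 and Ddx4 did not part beyond their spread (Asz1 higher in 11 of 18 oocytes, adjusted p = 0.48 in the permutation test), nor did Mov10l1 and Piwil2 (13 of 18, adjusted p = 0.083 in the same permutation test). Mov10l1 and Piwil2 did part in the 10 higher-mapped wild-type FGOs, where Mov10l1 was above Piwil2 in 9 of 10 (adjusted p = 0.00465 in the permutation test). In the 8 lower-mapped wild-type FGOs Ddx4 and Mael did not part either (adjusted p = 0.26 in the exact permutation test).

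**Figure D1:**
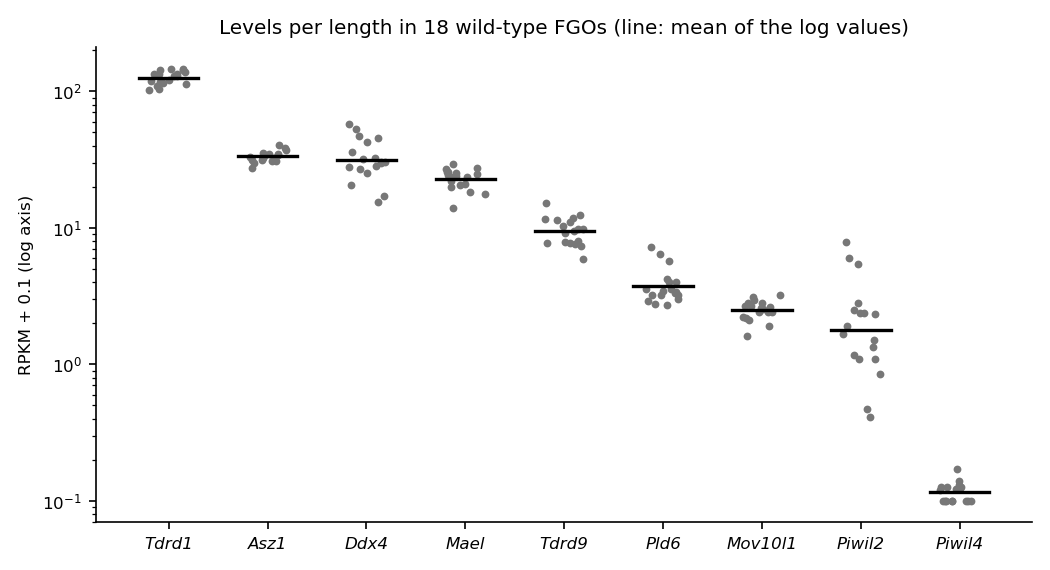
Level per length of each member in 18 wild-type FGOs, as RPKM + 0.1 on a log axis, with 1 point per oocyte and a line at the mean of the log values. Tdrd1 stands highest with a mean of 127 RPKM, Piwil2 has the widest spread of points, and Piwil4 lies at or near 0 in every oocyte.

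Piwil4 encodes MIWI2, the nuclear PIWI protein of fetal male germ cells. It had 25 counts over all 18 wild-type FGOs, with a count in 10 of them and at most 6 counts in 1 oocyte. In the other groups it had a count in 3 of 8 Dnmt3LADD/ADD, 3 of 8 Dnmt3aADD/ADD, 2 of 8 [Dnmt3aADD/ADD, Dnmt3LADD/ADD] and 4 of 10 MII oocytes. These levels were near the limit of detection, and 137 bases of its exons overlap the antisense gene Gm10706, from which unstranded reads cannot be told apart. Piwil4 did not pass the filter on low counts and was not tested, so that 8 of the 9 members entered the tests below.

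Piwil2 and Ddx4 varied more between wild-type FGOs than nearly all genes of like level, whereas the shares for Asz1 and Mov10l1 were the lowest of the 8 members over all 18 oocytes. Piwil2 ranged from 1.53 to 38.5 CPM, a 25.2-fold range, and the SD of its log2 CPM was 1.21. That was larger than in 99.1% of the 1517 genes whose mean log2 CPM lay within 0.5 of its own. Ddx4 ranged from 44.0 to 164 CPM, 3.74-fold, and its SD was larger than in 98.8% of genes of like level. The same share was 89.4% for Tdrd9, 72.6% for Mael, 53.8% for Pld6, 40.1% for Tdrd1, 28.7% for Mov10l1 and 23.1% for Asz1. The widest range of Piwil2 came from the lower-mapped libraries, where it ran from 1.53 to 38.5 CPM (8 oocytes), against 4.86 to 11.2 CPM in the higher-mapped ones (10 oocytes). Within the higher-mapped class the spread was still larger than in 91.1% of like genes for Piwil2 and in 97.9% for Ddx4. The order of the members was not the same there, with Mael at 95.5%, above Piwil2, and Pld6 at 5.67%, below Mov10l1 (30.4%) and Asz1 (31.9%).

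**Figure D2:**
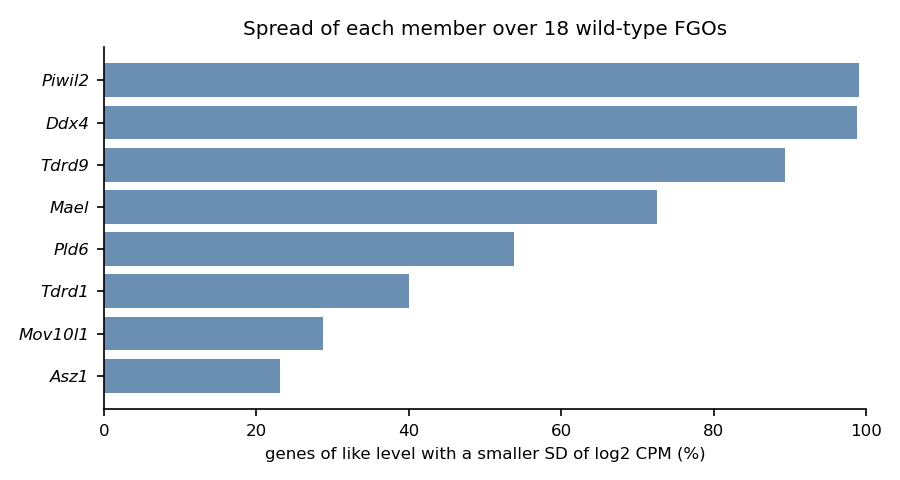
For each of the 8 tested members, the bar gives the percentage of genes of like level whose SD of log2 CPM over the 18 wild-type FGOs was smaller. Piwil2 at 99.1% and Ddx4 at 98.8% stand at the upper end, and Asz1 at 23.1% at the lower end.

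The first question was whether the ADD mutations, alone or together, went along with a change of these genes in FGOs. The 3 comparisons with wild-type FGOs share the same 18 controls. In Dnmt3LADD/ADD FGOs 0 of the 8 tested members passed the threshold of an adjusted p under 0.05, against 6.13% of all 15726 genes tested. At an unadjusted p under 0.05 there were 2, Piwil2 and Mov10l1. In Dnmt3aADD/ADD FGOs Piwil2 and Mov10l1 were lower, 2 of 8 members, against 15.7% of all genes in either direction and 7.61% in this direction. Piwil2 was also lower by over 2-fold, as were 1.76% of all genes. In the same comparison 7 of the 10 oocyte markers (median log2 fold change -0.32), 4 of 10 granulosa and 2 of 4 tested theca markers were lower, and their part in the result was not tested. In [Dnmt3aADD/ADD, Dnmt3LADD/ADD] FGOs 0 of 8 members differed from the wild type, against 12.2% of all genes, and 1, Pld6, had an unadjusted p under 0.05. Between both single mutants 0 of 8 members differed, against 0.0127% of all genes, and 0 had an unadjusted p under 0.05. DESeq2 and edgeR's exact test also gave 0 members in these 3 comparisons. The median log2 fold change of the members against the wild type was -0.20 in Dnmt3LADD/ADD, -0.16 in Dnmt3aADD/ADD and 0.02 in [Dnmt3aADD/ADD, Dnmt3LADD/ADD] FGOs, beside -0.03, -0.03 and -0.01 over all genes.

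Piwil2 binds piRNAs and cuts transposon transcripts with them, and was the member with the largest differences. It lay at 1.53, 8.34 and 38.5 CPM (lowest, median and highest) in the 18 wild-type FGOs, at 3.31, 5.01 and 15.4 CPM in the 8 Dnmt3LADD/ADD FGOs and at 2.68, 3.43 and 13.2 CPM in the 8 Dnmt3aADD/ADD FGOs. In the 8 [Dnmt3aADD/ADD, Dnmt3LADD/ADD] FGOs it lay at 7.23, 13.7 and 32.3 CPM. All groups overlapped the wild type, and 7 of the 8 Dnmt3aADD/ADD oocytes, all but replicate 4, were at or below 3.85 CPM and so below every oocyte of the FGOs with both mutations. Against the wild type, the log2 fold change was -0.85 ± 0.42 (SE) in Dnmt3LADD/ADD (adjusted p = 0.215), -1.34 ± 0.43 in Dnmt3aADD/ADD (2.53-fold lower, adjusted p = 0.0288) and 0.54 ± 0.38 with both mutations (adjusted p = 0.359, and 0.04 within lower-mapped libraries, adjusted p = 0.994). The call in Dnmt3aADD/ADD was not held within either class of mapped reads, with -2.43 in lower-mapped (adjusted p = 0.167) and -0.49 in higher-mapped libraries (adjusted p = 0.37). It was also lost when both groups were fitted alone (adjusted p = 0.0587), with the class as a covariate (-1.14, adjusted p = 0.0653) and without any of 8 of the 26 libraries, with a highest adjusted p of 0.063 without Dnmt3aADD/ADD replicate 3.

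**Figure D3:**
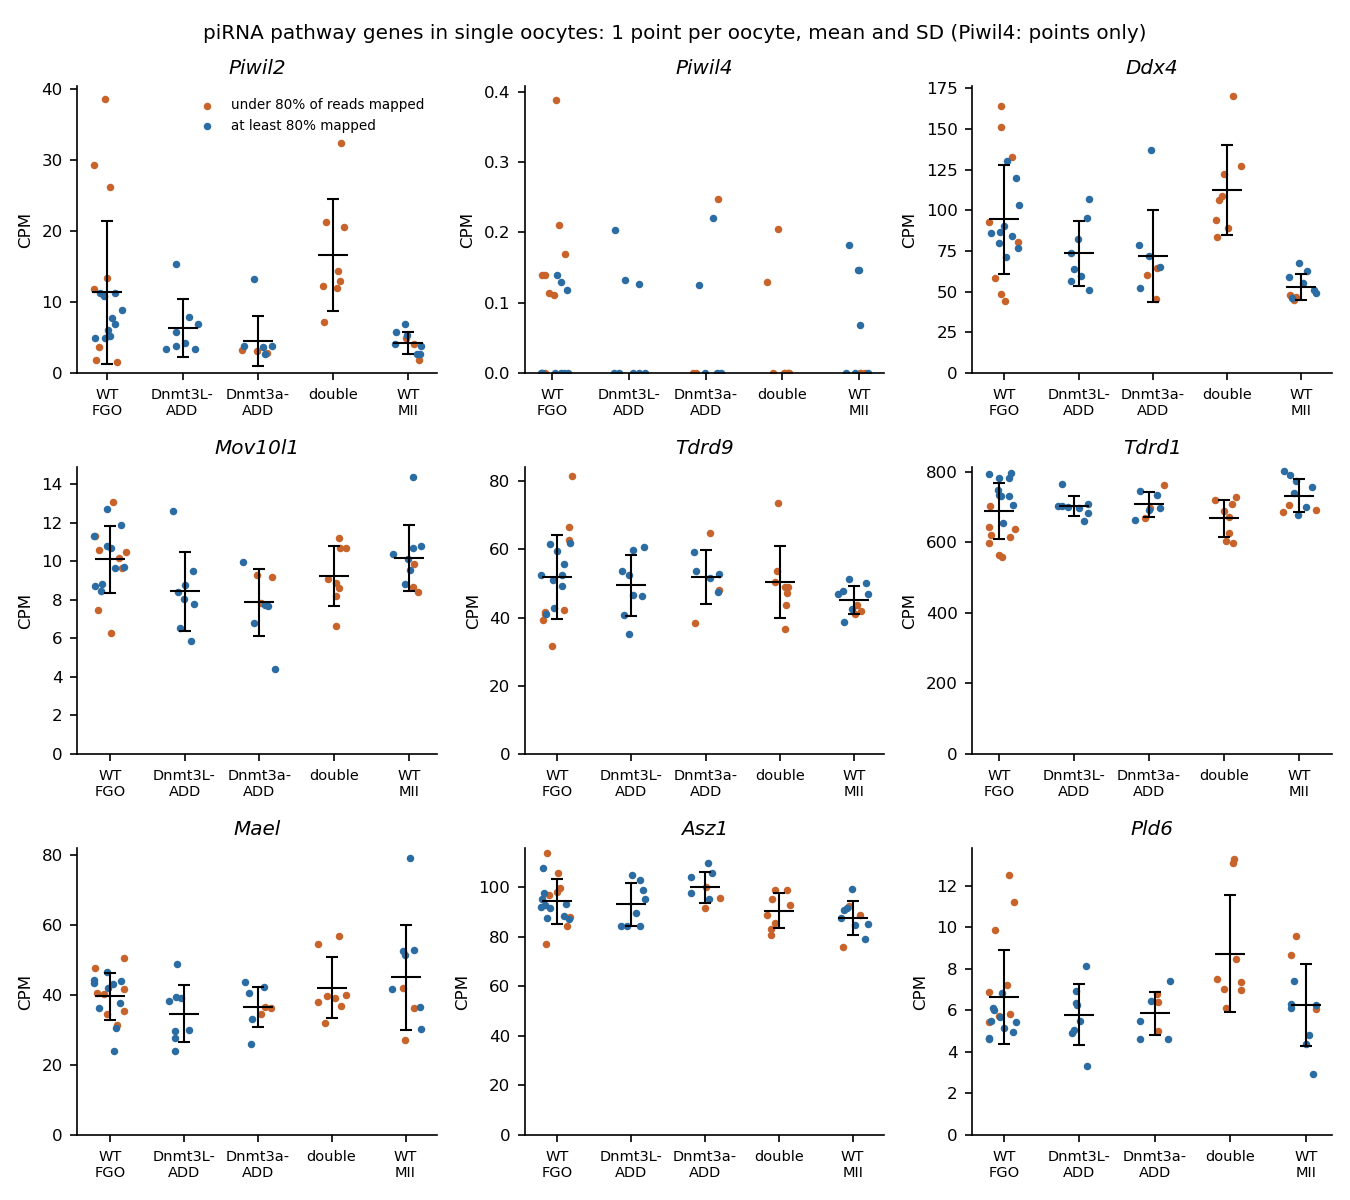
CPM of each member, 1 panel per gene, by group on the horizontal axis, with 1 point per oocyte coloured by the share of mapped reads and with the mean and SD as black lines (points only for Piwil4). Piwil2 and Ddx4 were highest in FGOs with both mutations (means of 16.6 and 113 CPM). Their means were lowest in MII oocytes (4.2 and 53.0 CPM), but the median of Piwil2 was lower in Dnmt3aADD/ADD FGOs (3.43 against 4.06 CPM), whereas group means of Tdrd1 stayed between 668 and 732 CPM.

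Levels in FGOs with both mutations were then set against each single mutant, with the same 8 FGOs carrying both mutations on one side. Piwil2, Ddx4 and Pld6 were higher than in Dnmt3LADD/ADD FGOs (3 of 8 members, against 24.2% of all genes in either direction and 12.8% in this direction) and higher than in Dnmt3aADD/ADD FGOs (3 of 8, against 30.9% and 16%). By over 2-fold, Piwil2 was higher in both comparisons, as were 2.86% and 4.38% of all genes. Piwil2 was 2.62-fold higher than in Dnmt3LADD/ADD (log2 1.39 ± 0.48, adjusted p = 0.0297) and 3.67-fold higher than in Dnmt3aADD/ADD FGOs (1.87 ± 0.48, adjusted p = 0.00354). All Dnmt3LADD/ADD libraries were higher-mapped and all libraries with both mutations lower-mapped, so that for this pair genotype and class cannot be told apart. With the class as a covariate, estimated from the other groups, the log2 fold change against Dnmt3LADD/ADD was 0.78 for Piwil2, 0.69 for Ddx4 and 0.15 for Pld6 (adjusted p = 0.541, 0.219 and 0.782). Replicate 4 was the highest in Piwil2 of the FGOs with both mutations. Without this replicate, Piwil2 was 1.18 above Dnmt3LADD/ADD on the log2 scale (adjusted p = 0.0852) and 1.67 above Dnmt3aADD/ADD FGOs (adjusted p = 0.0124). For Dnmt3aADD/ADD a comparison within the lower-mapped libraries was possible. There Piwil2 was at 2.79, 3.10 and 3.17 CPM in the 3 Dnmt3aADD/ADD FGOs and at 7.23 CPM or more in all 8 FGOs with both mutations, a log2 fold change of 2.48 (adjusted p = 0.00249). With the class as a covariate over all 42 FGOs, the log2 fold change against Dnmt3aADD/ADD was 1.41 for Piwil2, 0.71 for Ddx4 and 0.30 for Pld6 (adjusted p = 0.0852, 0.0564 and 0.337).

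Ddx4 is known as a marker of germ cells and as a helicase of their granules. It lay at 44.0, 86.3 and 164 CPM (lowest, median and highest) in wild-type, 50.7, 68.9 and 107 CPM in Dnmt3LADD/ADD and 45.7, 64.9 and 137 CPM in Dnmt3aADD/ADD FGOs. With both mutations it lay at 83.4, 107 and 170 CPM. The groups overlapped, and Dnmt3aADD/ADD replicate 4, at 137 CPM, stood apart from the other 7 oocytes of its group, the next of which was at 78.9 CPM. Ddx4 was 1.53-fold higher with both mutations than in Dnmt3LADD/ADD (log2 0.62 ± 0.22, adjusted p = 0.0372) and 1.58-fold higher than in Dnmt3aADD/ADD FGOs (0.66 ± 0.22, adjusted p = 0.0203). Within the lower-mapped libraries it was 1.02 higher on the log2 scale than in Dnmt3aADD/ADD FGOs (adjusted p = 0.00514). Without replicate 4 of the FGOs with both mutations, the adjusted p rose to 0.108 and 0.0642. Against the wild type, Ddx4 differed in no mutant (adjusted p from 0.135 to 0.377), and only without Dnmt3aADD/ADD replicate 4 was it lower in that mutant (-0.62, adjusted p = 0.0192).

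Pld6, whose product cuts piRNA precursors, lay at 4.62, 5.80 and 12.5 CPM (lowest, median and highest) in wild-type, 3.30, 5.88 and 8.14 CPM in Dnmt3LADD/ADD, 4.62, 5.95 and 7.40 CPM in Dnmt3aADD/ADD FGOs and 6.13, 7.45 and 13.3 CPM with both mutations. All groups overlapped. Its log2 fold change with both mutations was 0.59 ± 0.20 against either single mutant (adjusted p = 0.0281 against Dnmt3LADD/ADD and 0.0224 against Dnmt3aADD/ADD). The highest oocytes with both mutations were replicates 7 and 4, at 13.3 and 13.1 CPM, and without replicate 4 the adjusted p rose to 0.0883 and 0.072. Within the lower-mapped libraries the difference from Dnmt3aADD/ADD was 0.56 (adjusted p = 0.16). In the wild type Pld6 had a mean of 8.08 ± 2.71 CPM (SD, n = 8) in lower-mapped and 5.50 ± 0.698 CPM (SD, n = 10) in higher-mapped FGOs.

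Mov10l1, the helicase of piRNA precursors, lay at 6.27, 10.3 and 13.1 CPM (lowest, median and highest) in wild-type and at 4.43, 7.79 and 9.95 CPM in Dnmt3aADD/ADD FGOs. The groups overlapped, with all 8 mutant oocytes below the wild-type median and replicate 3 the lowest of them. It was 1.30-fold lower in Dnmt3aADD/ADD FGOs (log2 -0.38 ± 0.13, adjusted p = 0.0392), and without replicate 3 the difference was -0.29 with an adjusted p of 0.114. With both groups fitted alone the adjusted p was 0.0514. Within the classes it was -0.21 (lower-mapped, adjusted p = 0.607) and -0.48 (higher-mapped, adjusted p = 0.0552). In Dnmt3LADD/ADD FGOs it was at 5.88, 8.23 and 12.6 CPM (-0.27 ± 0.13, adjusted p = 0.206), and with both mutations at 6.63, 8.96 and 11.2 CPM (-0.13 ± 0.13, adjusted p = 0.512).

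Tdrd1, Asz1, Mael and Tdrd9 passed the threshold in none of the 6 comparisons between FGO genotypes. The scaffold Tdrd1 had means of 689 ± 79.1 (SD, n = 18), 703 ± 29.3, 707 ± 35.7 and 668 ± 52.1 CPM (SD, n = 8 each) in wild-type, Dnmt3LADD/ADD, Dnmt3aADD/ADD and [Dnmt3aADD/ADD, Dnmt3LADD/ADD] FGOs. Its 95% intervals for the log2 fold change against the wild type lay between -0.15 and 0.13 over the 3 mutants. Those of the anchor gene Asz1 lay between -0.17 and 0.19. The intervals were wider for Mael (from -0.43 to 0.31 over the 3 mutants) and for Tdrd9 (from -0.32 to 0.24). Tdrd1 moved with the class of mapped reads in the wild type, from 557 to 703 CPM in the 8 lower-mapped and from 655 to 797 CPM in the 10 higher-mapped FGOs.

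**Figure D4:**
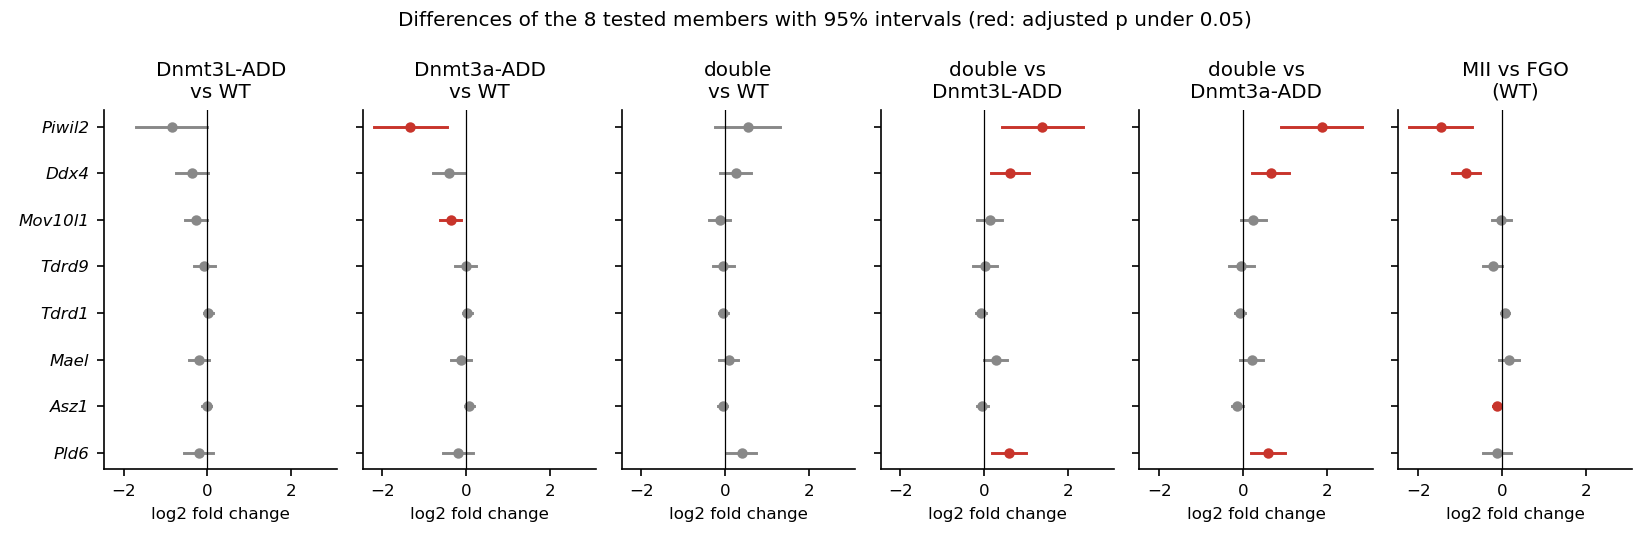
Log2 fold change of the 8 tested members in 6 comparisons, with 95% confidence intervals as lines, red where the adjusted p was under 0.05. Piwil2 runs from -1.34 in Dnmt3aADD/ADD against wild type to 1.87 for both mutations against Dnmt3aADD/ADD, while Tdrd1 and Asz1 stay near 0.

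Whether the effects of the mutations add up was tested as the difference between the change that the Dnmt3L mutation made on the Dnmt3aADD/ADD background and the change that it made on the wild-type background. Piwil2, Ddx4, Pld6 and Mov10l1 were higher with both mutations than the sum of the single effects on the log2 scale, 4 of 8 members, against 35.6% of all genes in either direction and 19.3% in this direction. The excess was 2.73 ± 0.64 for Piwil2 (adjusted p = 0.0011), 1.03 ± 0.29 for Ddx4 (adjusted p = 0.00576), 0.79 ± 0.27 for Pld6 (adjusted p = 0.0177) and 0.51 ± 0.20 for Mov10l1 (adjusted p = 0.0379). For Piwil2, Ddx4 and Pld6 it stayed past the threshold without any 1 of the 42 libraries, and for Mov10l1 it did so in 34 of the 42 fits that left out 1 library. With the class of mapped reads as a covariate Ddx4 alone was called (1.11, adjusted p = 0.0322), and Piwil2 (1.92, adjusted p = 0.0937), Pld6 (0.29, adjusted p = 0.551) and Mov10l1 (0.45, adjusted p = 0.187) were not. The members' median excess was 0.46, beside 0.04 over all genes. The oocyte markers moved in the same way. All 10 were higher than additive, and their summed level ran from 10100 to 11400 CPM with both mutations, from 7180 to 9140 CPM in Dnmt3LADD/ADD and from 6490 to 8490 CPM in Dnmt3aADD/ADD FGOs. Of the markers of other cells, 6 of 10 for granulosa and 4 of 4 tested for theca cells were lower with both mutations than in the wild type. Their summed levels ran from 127 to 148 and from 1.91 to 5.33 CPM, against 120 to 193 and 12.6 to 116 CPM in the wild type. The part of these markers in the result was not tested.

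The second question was how the members changed from the FGO to the MII stage in the wild type. The labels give no age for the MII oocytes. For in vitro fertilization, the paper took such oocytes from hormone-injected females of a wider age range than for FGOs. Stage, age and hormone treatment therefore cannot be told apart here. Nor can less RNA and less polyadenylation, since the kit copies polyadenylated RNA. Piwil2, Ddx4 and Asz1 were lower in MII oocytes, 3 of 8 members, against 39.1% of all 15784 genes tested in either direction and 22.6% in this direction, and 1 of them, Piwil2, by more than 2-fold (9% of all genes in this direction). Piwil2 lay at 1.90, 4.06 and 6.87 CPM (lowest, median and highest) in the 10 MII oocytes, against a wild-type FGO median of 8.34 CPM. It was 2.76-fold lower (log2 -1.46 ± 0.38, adjusted p = 0.00172), and the groups overlapped. Ddx4 lay at 44.7, 50.1 and 67.7 CPM, below the FGO median of 86.3 CPM in every MII oocyte, with a 1.81-fold difference (-0.85 ± 0.17, adjusted p = 6.92e-05). Both calls held without any 1 library. Within the higher-mapped libraries the fall was smaller for Piwil2 (-0.82, adjusted p = 0.01) and alike for Ddx4 (-0.74, adjusted p = 3.13e-05). Within the lower-mapped libraries, with 3 MII oocytes, it was -2.17 (adjusted p = 0.142) and -1.10 (adjusted p = 0.0912).

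The other members moved little with the stage. Asz1 was 1.09-fold lower in MII oocytes (-0.12 ± 0.05, adjusted p = 0.0451), a call that was lost in 22 of the 28 fits that left out 1 library and within the higher-mapped libraries (-0.09, adjusted p = 0.185). Mael, Tdrd1, Tdrd9, Mov10l1 and Pld6 were not called, with log2 fold changes from -0.22 for Tdrd9 (adjusted p = 0.093) to 0.17 for Mael (adjusted p = 0.283). Mael spread more in MII oocytes, from 27.2 to 79.3 CPM, than in wild-type FGOs, from 23.9 to 50.7 CPM, although this difference in spread was not tested. The spread of Piwil2 and Ddx4 was smaller in MII oocytes, with an SD of log2 CPM of 0.55 and 0.21, beside 1.21 and 0.52 in wild-type FGOs, which was not tested either. Of the oocyte markers 5 of 10 were lower in MII oocytes, with a summed median of 7610 CPM against 9450 CPM in wild-type FGOs. The summed granulosa markers were lower in MII oocytes (114 to 133 CPM against 120 to 193 CPM), as were those of theca cells (1.82 to 11.9 against 12.6 to 116 CPM), and their part in the result was not tested.

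Piwil2 and Ddx4 rose and fell together from oocyte to oocyte within groups. As deviations of log2 CPM from the group means, their correlation was 0.842 over the 52 oocytes (Spearman's rho 0.78), and 0.831 without the 2 oocytes farthest from the median of Piwil2. Within groups it was 0.875 in wild-type, 0.744 in Dnmt3LADD/ADD, 0.909 in Dnmt3aADD/ADD, 0.957 in [Dnmt3aADD/ADD, Dnmt3LADD/ADD] FGOs and 0.547 in MII oocytes. Both values of a pair come from the same library and share its depth and normalization. In the wild type the correlation was 0.925 in the 8 lower-mapped and 0.716 in the 10 higher-mapped FGOs. The oocytes of their groups that were highest in both genes were wild-type replicates 4, 5 and 6, replicate 4 of Dnmt3aADD/ADD, replicate 2 of Dnmt3LADD/ADD and replicates 3, 4 and 7 of the FGOs with both mutations. Piwil2 also went with the summed oocyte markers (0.541) and with the number of genes detected (0.549), less with the total count (0.204), and their part in the correlation was not tested.

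**Figure D5:**
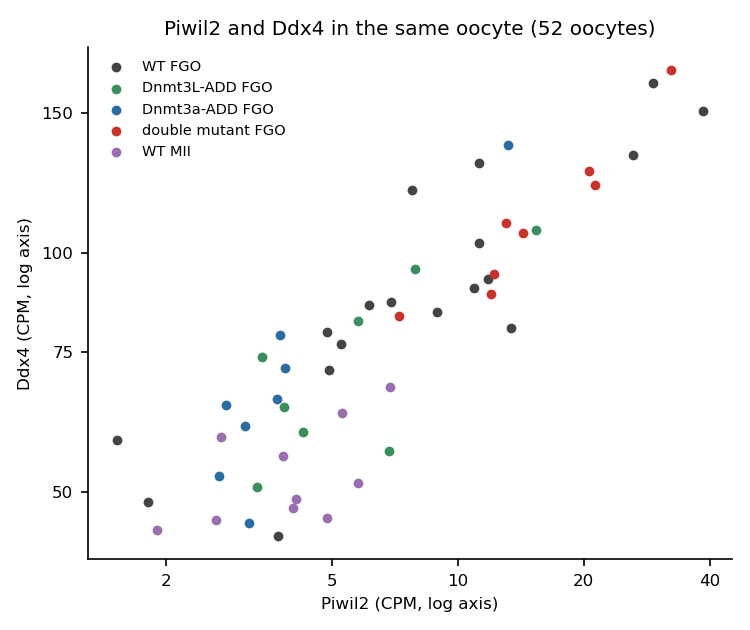
Piwil2 against Ddx4 in the same oocyte, both as CPM on log axes, with 1 point per oocyte (52) coloured by group. MII oocytes lie at the lower left together with most Dnmt3aADD/ADD and some wild-type FGOs, and 3 wild-type FGOs and the highest FGOs with both mutations lie at the upper right.

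Over the 52 oocytes the other pairs of members were less alike, although this order did not hold within every group or class. In wild-type FGOs Tdrd9 and Pld6 correlated at 0.954 in the lower-mapped class, and Piwil2 and Tdrd9 at 0.761 in the higher-mapped one. In MII oocytes Ddx4 and Mov10l1 correlated at 0.723, and Ddx4 and Pld6 at -0.886. The latter pair correlated at 0.841 in FGOs with both mutations. Over all oocytes Tdrd9 went with Ddx4 (0.545) and with Piwil2 (0.526), whereas the scaffold Tdrd1 ran against Pld6 (-0.592) and Piwil2 (-0.361). The relation of Tdrd1 and Pld6 was -0.615 in the lower-mapped and -0.14 in the higher-mapped wild-type FGOs, and both genes differed in level between these classes. By group it ran from -0.937 in FGOs with both mutations to -0.019 in Dnmt3aADD/ADD FGOs. Over the 52 oocytes the values for Mael ran from -0.095 with Tdrd1 to 0.262 with Asz1. In single groups they were larger, such as -0.778 with Piwil2 and -0.695 with Ddx4 in Dnmt3aADD/ADD FGOs and 0.683 with Tdrd9 in MII oocytes. Among the 15783 other genes tested, Ddx4 ranked as number 98 in likeness to Piwil2, and Piwil2 as number 33 in likeness to Ddx4. The genes most like Piwil2 by the same deviations were Hsf2 (0.918) and Tspan3 (0.918), followed by Dpf2 (0.90), and by the levels themselves Hsf2 and Tspan3 again (0.942 and 0.94), followed by Eloa (0.93). Those most like Ddx4 were Fmr1 (0.899), Rap1gap2 (0.898) and Prickle2 (0.891), and by levels Fmr1 (0.939), Prickle2 (0.933) and Smc2 (0.929). Tdrd1 was most like Fhod3 (0.878), Uso1 (0.853) and Usp7 (0.847), and Pld6 most like Ube2j1 (0.738). The closest to Tdrd9 was Nfx1 (0.668). For Mael, Mov10l1 and Asz1 the highest values were lower, 0.492 with Ltbp3, 0.592 with Mccc2 and 0.532 with Tas1r2.

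The rest of the piRNA pathway was read from a list of 22 further genes, 20 of which were found in the files and 19 tested in FGOs. In Dnmt3LADD/ADD 0 were called (also 0 at an unadjusted p under 0.05), 3 in Dnmt3aADD/ADD (2 higher, 1 lower) and 3 with both mutations (1 higher, 2 lower) against the wild type, each by less than 2-fold. The shares over all genes were 6.13%, 15.7% and 12.2%. Rnf17 and Tdrd12, which encode Tudor-domain proteins, were higher in Dnmt3aADD/ADD (0.25 and 0.18 on the log2 scale, adjusted p = 0.000186 and 0.00682). Tex15, a nuclear partner of MIWI2, was lower (-0.46, adjusted p = 0.0449), in the same direction as Piwil2 and Mov10l1. With both mutations Piwil1, the PIWI protein MIWI, was lower than in the wild type (-0.36, adjusted p = 0.0415), as was Morc1 (-0.44, adjusted p = 0.00982), a factor of transposon silencing in male germ cells. Against Dnmt3aADD/ADD, 2 of the 19 were higher and 5 lower, beside 30.9% of all genes in either direction. Piwil1 was lower (-0.67, adjusted p = 0.000575), opposite in direction to Piwil2, as was the mitochondrial Tudor protein gene Tdrkh (-0.37, adjusted p = 0.00108). Pnldc1, whose product trims piRNA ends, was higher (0.54, adjusted p = 0.00836). Against Dnmt3LADD/ADD, 1 was higher and 4 lower, beside 24.2% of all genes. For the additive sum, 2 were higher and 5 lower, beside 35.6% of all genes. The median excess of the list was 0.09, beside 0.46 for the 8 members and 0.04 over all genes. The median of the list against Dnmt3aADD/ADD was 0.08, beside 0.23 for the 8 members and 0.01 over all genes.

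At the MII stage 20 of these genes were tested, and 2 were higher and 5 lower, beside 39.1% of all genes. Tdrd12 was higher (0.25, adjusted p = 3.61e-06), whereas Tex15 (-0.59, adjusted p = 0.00289) and Pnldc1 (-0.46, adjusted p = 0.00166) were lower, as Piwil2 was. Gtsf1l and Wdr77 were called lower by more than 2-fold, both from low levels. Wdr77 was at most at 1.04 CPM in wild-type FGOs and 0.137 CPM in MII oocytes, and Gtsf1l at most at 1.26 and 0.818 CPM. Of the 10 genes of the small interfering RNA and microRNA machinery, Ago4, which encodes an Argonaute protein, moved in the same directions as Piwil2. It was lower in MII oocytes (-1.67, adjusted p = 0.00019) and higher with both mutations than in Dnmt3LADD/ADD (1.10, adjusted p = 0.0454) and Dnmt3aADD/ADD FGOs (1.54, adjusted p = 0.00507). Its level was low, from 0.396 to 6.70 CPM in wild-type FGOs with a median of 0.944 CPM in MII oocytes, and in the comparison with Dnmt3LADD/ADD genotype and class of mapped reads cannot be told apart. In that list 0 genes were called in either single mutant against the wild type (at an unadjusted p under 0.05, 1 in Dnmt3LADD/ADD and 2 in Dnmt3aADD/ADD) and 1 in each direction with both mutations, beside 12.2% of all genes. With both mutations 2 were higher and 1 lower than in Dnmt3LADD/ADD FGOs, beside 24.2% of all genes. Compared with Dnmt3aADD/ADD, 2 were higher and 2 lower, beside 30.9%. At the MII stage 1 was higher and 3 lower, beside 39.1%.

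Among 12 tested genes of other retrotransposon control, Tex19.1, a germline factor that restrains retrotransposons, was lower in both single mutants (-0.31 in Dnmt3LADD/ADD, adjusted p = 0.00769, and -0.33 in Dnmt3aADD/ADD, adjusted p = 0.00151). It was higher with both mutations than in either (0.43, adjusted p = 0.000532, and 0.45, adjusted p = 0.000145). Its relative Tex19.2 exceeded the additive sum by 1.96 (adjusted p = 0.028) and was lower in MII oocytes (-1.94, adjusted p = 0.000787). In this list 0 genes were higher and 1 lower in Dnmt3LADD/ADD, 1 higher and 2 lower in Dnmt3aADD/ADD, and 1 higher and 2 lower with both mutations, beside 6.13%, 15.7% and 12.2% of all genes. With both mutations 2 were higher and 2 lower than in Dnmt3LADD/ADD FGOs, beside 24.2% of all genes. Compared with Dnmt3aADD/ADD, 3 were higher and 3 lower, beside 30.9%. For the additive sum 4 were higher and 3 lower, beside 35.6%, and at the MII stage 1 was higher and 4 lower, beside 39.1%. Of 6 tested genes from a list of germline genes whose promoters are methylated in somatic cells, 1 was lower in Dnmt3aADD/ADD (Sycp1, -0.62, adjusted p = 0.00655) and 1 higher with both mutations (Dazl, 0.24, adjusted p = 0.0343), against the wild type. The transcripts of the mutated genes themselves, Dnmt3a and Dnmt3l, were called in no FGO comparison.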

How the data were processed

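Libraries of 52 single oocytes were made with an oligo-dT-primed kit that does not mark strand. The authors aligned the reads with STAR to mm10 and deposited raw read counts per gene, 1 file per oocyte (featureCounts and HTSeq are named as counters). The annotation release and the treatment of multi-mapped reads are not given in the sources used here. Allelic tables of embryos, with 14 columns of per-sample values, were not used. Groups and replicate numbers came from the sample labels. The members, the gene lists and the motifs were chosen with earlier results of these data known. Named beside the members were list genes with a fold over 2 or among the 4 lowest p-values per list and comparison, and the genes most alike by Pearson correlation. Genes were kept by edgeR's filter on low counts (minimum 10), and counts were scaled by TMM and tested with the quasi-likelihood test of edgeR 4.0.16 (R 4.3.3) with Benjamini-Hochberg adjustment over all genes, threshold 0.05. The 42 FGOs entered 1 fit with a term per genotype (15726 genes), and all 52 oocytes the fit for the MII stage (15784 genes). The script was tested on simulated data. CPM were computed from library totals adjusted by TMM factors over all 52 oocytes, and log2 CPM with a prior count of 2. Levels per length used merged exons and were compared by sign flips on log2(RPKM + 0.1), with 100000 resamples or exact in the smaller class. Total counts ran from 7832458 to 23739871, and no pair of libraries of a group differed by less than sampling noise (lowest chi-square per degree of freedom 5.02). The share of mapped reads came from the read summary among the study's supplements, matched by group and replicate number. Alternatives were DESeq2 1.42.0, edgeR's exact test, other size factors, no filter, robust estimation, the replicate block, the class of mapped reads, both groups alone and leaving out each library.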

Additional observations from a re-analysis of the deposited data

Results flagged for a closer look

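Of 32 groups of 8 or 10 oocytes (members by group), 7 held an oocyte set apart from the others by Dixon's ratio of CPM. For normally distributed values chance gives this in about 1 in 20 groups. CPM can be skewed toward high values and the ratio was not taken on log values, so this rate need not hold here. In Dnmt3aADD/ADD FGOs, replicate 4 had 13.2 CPM of Piwil2 (next 3.85 CPM) and 137 CPM of Ddx4 (next 78.9 CPM). In Dnmt3LADD/ADD FGOs, replicate 2 had 15.4 CPM of Piwil2 (next 7.87 CPM) and replicate 7 had 765 CPM of Tdrd1 (next 709 CPM). In [Dnmt3aADD/ADD, Dnmt3LADD/ADD] FGOs, replicate 4 had 73.5 CPM of Tdrd9 (next 53.5 CPM). Among MII oocytes, replicate 2 had 79.3 CPM of Mael (next 52.9 CPM) and replicate 9 had 14.4 CPM of Mov10l1 (next 10.8 CPM). All 7 were the highest of their groups.

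The effect of the Dnmt3L mutation differed between the Dnmt3aADD/ADD and the wild-type background, by the interaction term of edgeR's quasi-likelihood test, for Piwil2 (2.73 on the log2 scale, adjusted p = 0.0011), Ddx4 (1.03, adjusted p = 0.00576), Pld6 (0.79, adjusted p = 0.0177) and Mov10l1 (0.51, adjusted p = 0.0379). Against an additive sum, 35.6% of all genes tested differed.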

How the results depend on the processing

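Of 560 member values under the alternatives to the test, scaling, filter and samples, 494 kept direction and side of the threshold, 32 kept the direction and were no longer called, 4 became called and 30 changed sign, none of them called in the report's own fit. Of the counts of members called, Dnmt3aADD/ADD against wild type (2) became 1 without a filter, 1 with the class of mapped reads as a covariate and 0 with both groups alone and within either class, and its 1 member over 2-fold became 0 under the last 3 and the covariate. FGOs with both mutations against Dnmt3LADD/ADD (3) gave 1 without a filter and 0 with the covariate (over 2-fold 0 in place of 1). Against Dnmt3aADD/ADD (3) they gave 0 with the covariate (over 2-fold 0 in place of 1) and 2 over 2-fold within lower-mapped libraries. The non-additive count (4) was 1 with the covariate. At the MII stage (3) the count was 0 within lower-mapped libraries (over 2-fold 0 in place of 1), and 0 were over 2-fold within higher-mapped ones. The causes were not tested, and the fits within classes also held fewer libraries.

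Leaving out 1 library gave 0 to 3 members for Dnmt3aADD/ADD against wild type (over 2-fold 0 to 1), 0 to 3 and 1 to 3 for both mutations against Dnmt3LADD/ADD (over 2-fold 0 to 1) and Dnmt3aADD/ADD (over 2-fold 1 to 1), 0 to 1 for both mutations against wild type, 3 to 5 for the non-additive effect and 2 to 3 for the MII stage. The single call of both mutations against wild type was Pld6, without wild-type replicate 4 (adjusted p = 0.0463) or 6 (adjusted p = 0.0276). Signs changed when 1 library was left out for Asz1 in Dnmt3LADD/ADD (-0.0468 to 0.0013), for Mov10l1 at the MII stage (-0.0802 to 0.0246), between the single mutants for Ddx4 (-0.248 to 0.0528), Pld6 (-0.0793 to 0.0814), Tdrd1 (-0.0197 to 0.0145) and Tdrd9 (-0.0009 to 0.11), and for Tdrd9 in Dnmt3aADD/ADD (-0.0637 to 0.0435) and with both mutations against wild type (-0.15 to 0.0089), Dnmt3LADD/ADD (-0.0649 to 0.0927), Dnmt3aADD/ADD (-0.127 to 0.0303) and the additive sum (-0.0434 to 0.114).

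Other changes of sign, as log2 values, were as follows. Without a filter Mov10l1 at the MII stage was at 0.0073. With the covariate Tdrd1 was at -0.0438 (Dnmt3LADD/ADD), 0.0545 (both mutations against wild type), 0.0983 and 0.0293 (against Dnmt3LADD/ADD and Dnmt3aADD/ADD) and 0.0731 (additive sum), and Pld6 at 0.0194 (Dnmt3LADD/ADD) and -0.15 (between single mutants). Within higher-mapped libraries, Tdrd1, Asz1 and Pld6 were at -0.0738, 0.0098 and 0.0912 in Dnmt3LADD/ADD, Tdrd1, Tdrd9 and Pld6 at -0.0712, 0.0126 and 0.0701 in Dnmt3aADD/ADD, Ddx4, Tdrd1 and Pld6 at 0.126, -0.0035 and -0.0271 between the single mutants, and Mov10l1 and Tdrd1 at 0.0423 and -0.0081 at the MII stage. Within lower-mapped libraries, Asz1 was at -0.0215 in Dnmt3aADD/ADD, Tdrd1 at 0.0951 and Tdrd9 at 0.0212 with both mutations against wild type and Dnmt3aADD/ADD, and Mael at -0.22 at the MII stage. With both groups alone, Tdrd1 and Pld6 were at -0.0025 and -0.0005 between the single mutants.

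Replicate numbers shared between groups did not pair the oocytes. Correlations of deviations ran from -0.518 to 0.472 and at most 2 of 8 oocytes correlated best with their own number. Mutants hold replicates 1 to 8 only. With the block, their comparison with the wild type thus rested on wild-type replicates 1 to 8, all lower-mapped. All Dnmt3LADD/ADD libraries were higher-mapped, and Tdrd1 averaged 618 CPM in lower-mapped and 746 CPM in higher-mapped wild-type FGOs. Within lower-mapped libraries Tdrd1 was at 0.17 in Dnmt3aADD/ADD (quasi-likelihood test, adjusted p = 0.23). The part of the class in the calls below was not tested. With the replicate block, 1 member, Tdrd1, was called in Dnmt3LADD/ADD against wild type (0.17, adjusted p = 0.0162). It was also called in Dnmt3aADD/ADD (0.17, adjusted p = 0.0108), for the additive sum (-0.25, adjusted p = 0.00556) and at the MII stage (0.15, adjusted p = 0.00858), whereas Mov10l1 in Dnmt3aADD/ADD (adjusted p = 0.0859) and for the additive sum (adjusted p = 0.0621) and Asz1 at the MII stage (adjusted p = 0.079) were not. The block changed the signs of Tdrd9 in Dnmt3aADD/ADD (0.0335), with both mutations (0.0009) and for the additive sum (-0.0005), of Tdrd1 with both mutations (0.0984) and of Pld6 between the single mutants (-0.0096). Levels of Piwil4, at most 6 counts per oocyte, were too low for any comparison.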
